A study of Mus musculus with 10 samples.

Results

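The genes described here build, stabilise or supply the photoreceptor outer segment, the stack of membrane discs in which rods and cones capture light. They are the 10 rows of a count table of 57186 mouse genes whose Ensembl identifiers carry the symbols Prph2, Rom1, Abca4, Rp1, Rp1l1, Prom1, Cdhr1, Tulp1, Fscn2 and Impg1. The genes were listed for their role, and all 10 had counts in every library and passed the filter on low counts. The table comes from bulk RNA sequencing of mouse neuroretina, the light-sensing layer of the eye without its pigment epithelium. Female C57BL6/JRj mice, whose age the labels do not give, were injected intravitreally, that is, into the gel that fills the eye, and the tissue was taken 14 days later. The CNP group (5 libraries) received 1 µL of graphitic carbon nitride nanoparticles, a polymer of carbon and nitrogen, at 1 mg/mL in phosphate-buffered saline. The PBS group (5 libraries) received the saline alone, so the needle injury is common to both groups, and no uninjected eye is among the samples. Libraries are named by group and label number. The design text counts 5 mice for CNP and 5 eyes for PBS, and does not tie libraries to animals, so p-values measure the spread between libraries, which may in part be technical.

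Outer segments are renewed throughout life. New discs form at the base as outgrowths of the ciliary membrane, are enclosed and flattened, and are shed at the tip to the pigment epithelium. The tetraspanins PRPH2 and ROM1 assemble into oligomers that hold the sharply curved disc rim. The transporter ABCA4 lies in the same rim and moves retinoids across the membrane. RP1 and RP1L1, relatives with doublecortin domains, bind the microtubules of the axoneme along which discs are stacked. PROM1 and the photoreceptor cadherin CDHR1 sit at the newly forming discs. TULP1 serves the transport of proteins to the outer segment, FSCN2 bundles actin, and IMPG1 is a proteoglycan of the matrix around the outer segments. Variants in most of these genes are linked to inherited retinal dystrophies.

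The sequence before the start of each member was searched for words that photoreceptor factors bind. CRX and related homeodomain factors, which drive photoreceptor genes, bind short words that begin with TAAT or TAAG. The 250 bases before each annotated transcript start were searched on both strands for the words TAATCC (present in 6.25% of all windows of this length), TAATCT (7.31%), TAAGCC (8.20%) and TAAGCT (7.52%). TAAGCT can overlap its own reverse complement, and words on 1 strand can share only an end base. Sequences are from RefSeq on build GRCm38.p6, which held 8 of the 10 members in 9 windows; Rp1 and Rp1l1 were not matched. At least 1 word was found in 7 of the 8 members, and 25.7% of all 32851 windows in that table held one. The window of Tulp1 held none. The 4 windows below are shown because they belong to the tetraspanin pair and to 2 genes, Fscn2 and Cdhr1, whose levels followed the pair most closely from library to library. Capitals mark the words; a word on the opposite strand appears as its reverse complement.
Prph2, chr17:46910228-46910477, plus strand: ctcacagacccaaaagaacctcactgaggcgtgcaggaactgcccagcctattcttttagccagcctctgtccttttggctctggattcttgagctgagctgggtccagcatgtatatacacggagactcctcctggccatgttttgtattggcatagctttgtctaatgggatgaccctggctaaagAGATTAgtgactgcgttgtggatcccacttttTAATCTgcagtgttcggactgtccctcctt
Rom1, chr19:8929357-8929606, minus strand: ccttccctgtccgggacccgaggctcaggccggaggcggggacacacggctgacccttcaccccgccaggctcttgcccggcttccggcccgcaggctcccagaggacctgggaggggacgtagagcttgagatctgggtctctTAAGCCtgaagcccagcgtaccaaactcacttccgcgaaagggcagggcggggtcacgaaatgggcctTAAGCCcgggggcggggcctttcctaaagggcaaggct
Fscn2, chr11:120361284-120361533, plus strand: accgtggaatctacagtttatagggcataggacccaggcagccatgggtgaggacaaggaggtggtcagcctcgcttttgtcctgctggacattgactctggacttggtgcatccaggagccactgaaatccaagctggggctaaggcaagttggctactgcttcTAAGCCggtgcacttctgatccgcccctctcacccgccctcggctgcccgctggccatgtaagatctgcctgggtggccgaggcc
Cdhr1, chr14:37098348-37098597, minus strand: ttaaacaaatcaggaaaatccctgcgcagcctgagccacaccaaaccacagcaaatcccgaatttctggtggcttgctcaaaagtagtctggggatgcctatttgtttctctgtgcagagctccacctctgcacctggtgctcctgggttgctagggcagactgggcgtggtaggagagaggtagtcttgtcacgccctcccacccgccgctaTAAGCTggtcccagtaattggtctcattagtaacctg
Prph2 held TAATCT in both orientations, ending 57 and 25 bases before the start. Rom1 held TAAGCC at 2 places, ending 101 and 33 bases before it. Fscn2 had a single TAAGCC and Cdhr1 a single TAAGCT. These matches describe the letters of the windows; binding was not measured here.

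Library totals ran from 3328518 to 5428697 counts. Levels are given in CPM, counts scaled to a common library size after TMM, a correction for differences in library composition. Markers of cell types were then read. Of 17 rod genes, 17 were detected, and their sum ran from 78715 to 143590.5 CPM in PBS and from 79942 to 109943 CPM in CNP. Detection here means any count, and the pigment epithelium and lens genes below were all detected too. It therefore does not check the tissue label. Libraries differed in the makeup of their RNA beyond the treatment. Summed amacrine cell markers (6 of 6 genes detected) ran from 265 CPM in PBS 14 to 869 CPM in PBS 2. Pigment epithelium markers (8 of 8) ran from 488 CPM in PBS 6 to 2528 CPM in CNP 12, and lens genes (11 of 11) from 211 CPM in PBS 2 to 8259.9 CPM in PBS 10.

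Levels of different genes were compared per kilobase of the longest transcript, with lengths from GENCODE M21. The labels describe barcoded primers with molecular identifiers, and do not record whether reads covered whole transcripts. If the counted reads came from the barcoded end alone, CPM itself is the fairer scale. Rom1 led on both scales, at 6607 ± 2176 CPM per kb (SD, n = 10). Tulp1 (1026 ± 223) and Prph2 (957 ± 142) followed, and these neighbours were not separated: Tulp1 exceeded Prph2 per kb in 7 of 10 libraries, while in CPM the order of their means was the reverse. Below them came Fscn2 (417), Prom1 (156), Cdhr1 (85.6), Impg1 (41.6), Rp1 (23.4), Abca4 (12.8) and Rp1l1 (7.57 CPM per kb). Each of these exceeded the next in 10 of 10 libraries per kb. In CPM the order of means was Rom1, Prph2, Tulp1, Fscn2, Prom1, Cdhr1, Rp1, Impg1, Abca4 and Rp1l1. On that scale Rp1 stood above Impg1 in every library. Fscn2 fell below Prom1 in PBS 2 (477 and 582 CPM), PBS 6 (491 and 592 CPM) and CNP 8 (508 and 576 CPM).

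The nanoparticles were compared with saline for every member. Of the 10 genes, 0 passed edgeR's quasi-likelihood test at an adjusted p under 0.05 and 0 had an unadjusted p under 0.05, beside 0% of the 11499 genes tested that passed (137 genes, 1.19%, at an unadjusted p under 0.05). DESeq2 and limma-voom also called 0 of the 10. The groups overlapped for all 10 members; over all genes they did not overlap for 0.287%. The median log2 fold change of the members was 0.0040, and that of all genes tested -0.0035. Positive values were found for 6 members and negative ones for 4, from -0.06 for Prph2 to 0.16 for Rp1l1, and 48.8% of all genes tested had a positive value. The tally of signs was not stable: 10 members were positive without PBS 14 or without CNP 8, and 3 were positive without PBS 2, PBS 6 or CNP 20 or with library number as a covariate.

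**Figure D1:**
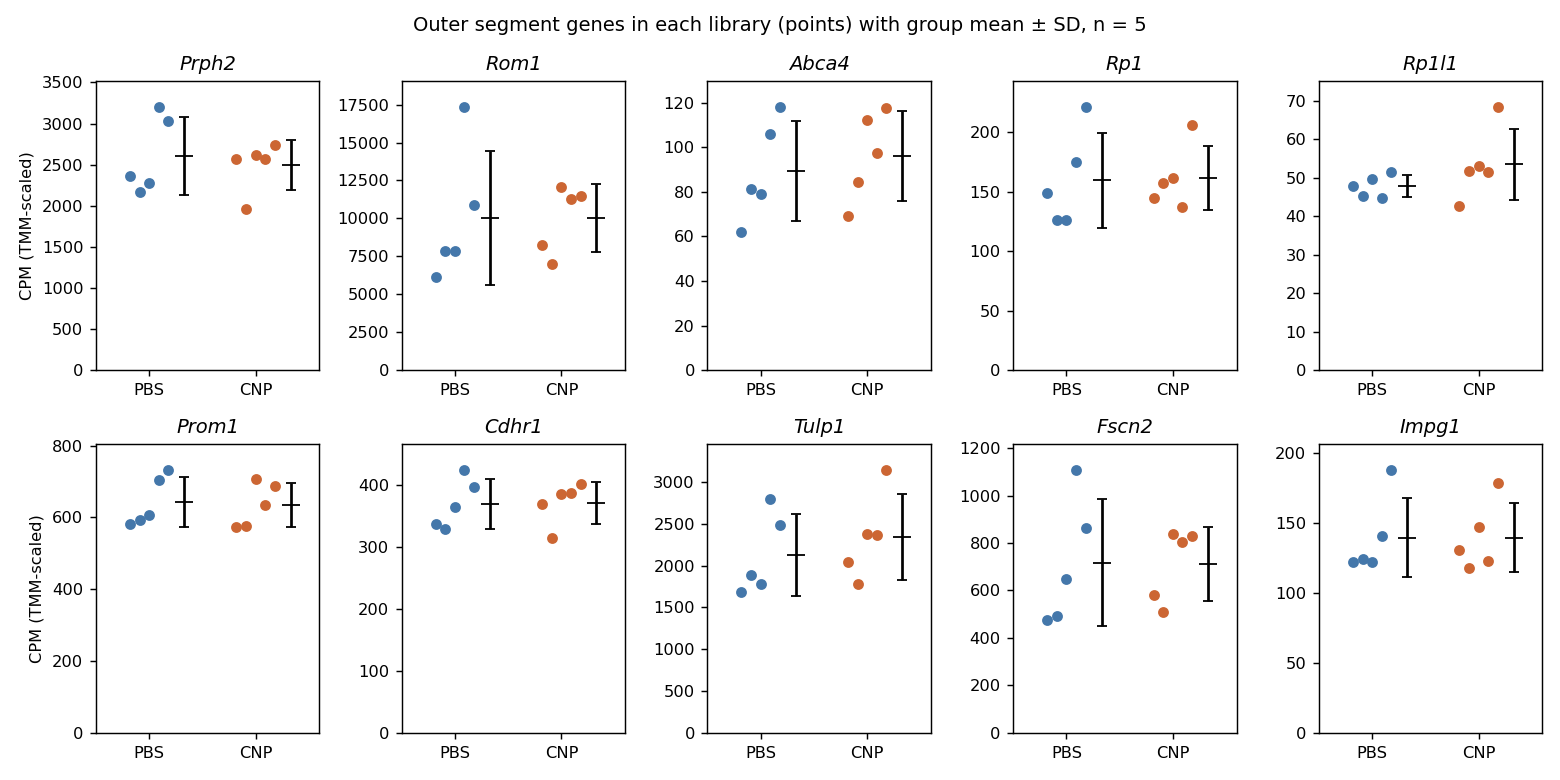
CPM (TMM-scaled, linear axes from 0) of the 10 genes in PBS (blue) and CNP (orange), 1 point per library, with the mean ± SD of 5 libraries beside the points. The groups overlap in every panel, and the PBS points of Rom1 and Fscn2 spread more widely than those of Prom1 and Cdhr1.

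Among the disc rim genes, Prph2 (ENSMUSG00000023978) measured 2361, 2165, 2282, 3197 and 3028 CPM in PBS 2, 6, 10, 14 and 18, and 2569, 1965, 2618, 2574 and 2738 CPM in CNP 4, 8, 12, 16 and 20. The 2 highest libraries were PBS 14 and PBS 18 and the lowest was CNP 8, and 4 of the 5 CNP values lay inside the PBS range. Means were 2607 ± 471 and 2493 ± 303 CPM (SD, n = 5 each), a log2 fold change of -0.06 (SE 0.15; edgeR adjusted p = 0.9999). Its partner Rom1 (ENSMUSG00000071648) measured 6173, 7847, 7883, 17318 and 10897 CPM in PBS, and 8272, 7021, 12056, 11289 and 11469 CPM in CNP, in the same order of libraries. PBS 14 stood above all others and PBS 2 below them. The means were nearly equal, at 10024 ± 4419 and 10022 ± 2231 CPM, with a log2 fold change of -0.0003 (SE 0.28). This near-zero value changed sign with the scaling: it was 0.0061 with upper-quartile scaling, 0.03 on library totals and 0.09 relative to the rod genes. Abca4 (ENSMUSG00000028125) had 61.9, 81.2, 79.1, 106 and 118 CPM in PBS and 68.9, 84.2, 112, 97.4 and 118 CPM in CNP, with the lowest values in PBS 2 and CNP 4. Its log2 fold change was 0.11 (SE 0.18).

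The axoneme genes Rp1 and Rp1l1 were next. Rp1 (ENSMUSG00000025900) measured 149, 126, 127, 175 and 221 CPM in PBS and 145, 158, 162, 137 and 206 CPM in CNP. One library of each group, PBS 18 and CNP 20, stood highest, and the log2 fold change was 0.02 (SE 0.16). Rp1l1 (ENSMUSG00000046049) measured 47.8, 45.1, 49.7, 44.8 and 51.5 CPM in PBS and 42.7, 51.8, 53.0, 51.4 and 68.3 CPM in CNP. CNP 20 was the highest library and CNP 4 the lowest, with PBS between them. Rp1l1 had the largest log2 fold change of the members, 0.16 (SE 0.12; unadjusted p = 0.196; edgeR adjusted p = 0.9999); 4 of 5 CNP libraries exceeded the PBS mean, and without CNP 20 the value was 0.06.

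The genes of nascent discs had the smallest span between highest and lowest library, 1.28-fold for Prom1 and 1.35-fold for Cdhr1. Prom1 (ENSMUSG00000029086) ran from 582 to 732 CPM in PBS and from 574 to 706 CPM in CNP, and Cdhr1 (ENSMUSG00000021803) from 329 to 424 and from 315 to 401 CPM. Their log2 fold changes were -0.02 (SE 0.11) and 0.01 (SE 0.11), the smallest standard errors of the 10. Tulp1 (ENSMUSG00000037446), the transport gene, measured 1690, 1886, 1780, 2797 and 2487 CPM in PBS and 2041, 1777, 2383, 2362 and 3144 CPM in CNP. CNP 20 was highest and PBS 2 lowest, and the log2 fold change was 0.14 (SE 0.19), or 0.0086 without CNP 20. The actin gene Fscn2 (ENSMUSG00000025380) measured 477, 491, 647, 1107 and 865 CPM in PBS and 582, 508, 838, 805 and 831 CPM in CNP, with PBS 14 highest, as for Rom1. Its log2 fold change was -0.01 (SE 0.24), and it became 0.02 on library totals and 0.07 relative to the rod genes. The matrix gene Impg1 (ENSMUSG00000032343) ran from 122 to 188 CPM in PBS and from 118 to 178 CPM in CNP, with a log2 fold change of 0.0021 (SE 0.15).

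The intervals show what size of difference the data leave room for. A change of 2-fold or more, up or down, lay outside the 95% interval for 10 of 10 members (as for 94.2% of all genes tested), and one of 1.5-fold or more for 9 (65.3%). The narrowest were those of Cdhr1, from 0.856-fold to 1.18-fold, and Prom1, from 0.837-fold to 1.17-fold. The member outside the 1.5-fold bounds was Rom1, from 0.660-fold to 1.51-fold; the next widest was Fscn2, from 0.697-fold to 1.42-fold. With any 1 library left out, between 6 and 8 members had intervals inside 1.5-fold.

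**Figure D2:**
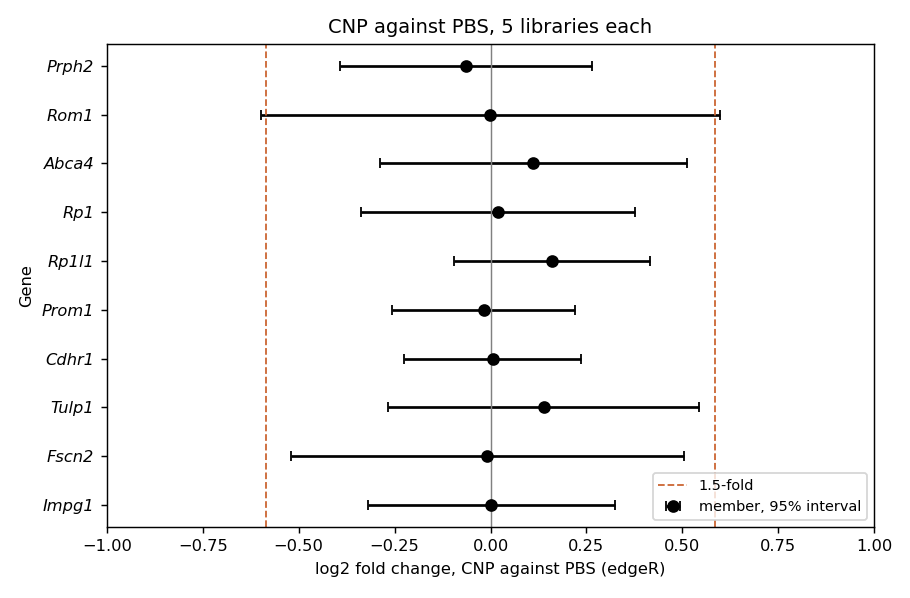
Log2 fold change of each member, CNP against PBS, from edgeR (points) with its 95% interval (bars); dashed lines mark a 1.5-fold change either way. All 10 intervals include 0, and only that of Rom1, from -0.60 to 0.60, reaches past the dashed lines.

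Spread between libraries exceeded counting error for most members. The coefficient of variation (SD as a percent of the mean) that counting alone would give ran from 0.485% for Rom1 to 6.67% for Rp1l1. In PBS the observed values were 44.1% for Rom1, 37.4% for Fscn2, 25.2% for Abca4 and 24.9% for Rp1. Rp1l1 was the exception: its PBS libraries varied by 6.05%, no more than counting error, and its CNP libraries by 17.3%. The gene-wise biological coefficient of variation from edgeR was 29.3% for Rom1 and 27.0% for Fscn2, where the trend over genes of like abundance gave 21.3% and 20.2%. For Prom1 (14.4%) and Cdhr1 (14.2%) it lay below their trend of 20.1% and 19.7%. In all, 5 of the 10 members lay above the trend and the rest below.

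In CPM, the members varied together over the libraries. All 45 pairs had a positive Pearson correlation of log2 CPM over the 10 libraries, with a median of 0.75. These libraries share depth, scaling and makeup, so the values are descriptive. Correlations on library totals, and those of pairs over all genes, were not computed. The scaling matters here. Prom1, for example, had 2344 of 3919337 counts in PBS 14, where Rom1 was highest, and 3471 of 5428697 in PBS 2, where Rom1 was lowest. The closest pairs were Rom1 with Fscn2 (0.96), Cdhr1 with Fscn2 (0.95) and Prph2 with Cdhr1 (0.94). Abca4 was closest to Prom1 (0.91), and Rp1 to Impg1 (0.90). Rp1l1 stood apart, with a median of 0.42 against the other members and 0.09 against Prph2.

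**Figure D3:**
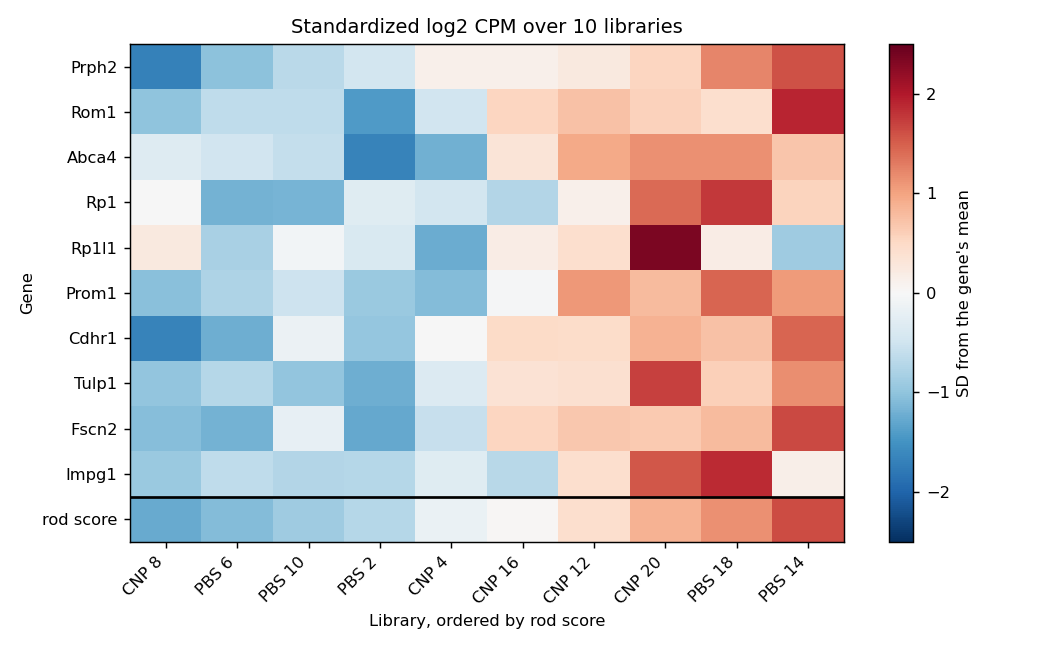
Log2 CPM of each member, standardized over the 10 libraries (color, in SD from the gene's mean), with libraries ordered by the rod score, the mean log2 CPM of 17 rod genes that include no member (bottom row). Most rows pass from blue to red along the order, while the row of Rp1l1 peaks in CNP 20 and is below its mean in PBS 14.

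The members were then set against rod transcripts. A rod score, the mean log2 CPM of 17 rod genes such as Sag and Gnat1, ran from 10.73 in CNP 8 to 11.47 in PBS 14. Prph2 had the same order of libraries as the score, with Pearson's r = 0.97 and Spearman's rho = 1 over 10 libraries (permutation p = 1e-05 for each, the smallest that 100000 permutations can give; adjusted over all genes tested, 0.00548 and 0.0153). Pearson correlations passed at an adjusted p under 0.05 for 7 members, and so did 9.84% of the 11482 genes outside the rod list with a positive r; the Spearman test passed for 6, all of these but Prom1 (adjusted p = 0.0593), and for 6.04% of those genes with a positive rho. Cdhr1 (r = 0.93, rho = 0.96), Fscn2 (0.92, 0.88), Tulp1 (0.90, 0.88), Rom1 (0.89, 0.84), Prom1 (0.89, 0.78) and Impg1 (0.77, 0.83) were the others. Rp1 (r = 0.75, rho = 0.73; permutation p = 0.013 and 0.02, adjusted 0.0536 and 0.0803) and Abca4 (r = 0.75, rho = 0.70; p = 0.017 and 0.031, adjusted 0.0638 and 0.101) fell short of the threshold. Rp1l1 had r = 0.24 and rho = 0.12 (p = 0.53 and 0.76, adjusted 0.673 and 0.856). The permutations exchanged all 10 libraries freely. The score also split by the label number described below, so these p-values do not set the relation with rod genes apart from that split. Both the score and the members were divided by the same TMM factors, from 0.8488 in PBS 14 to 1.0979 in PBS 2. This shared scaling can raise r, and the correlations were not computed on library totals. Per rod count, described below, the spread of Prom1, Cdhr1 and Rp1l1 rose, and that of the other 7 members fell. Without PBS 14 and PBS 18, the 2 libraries farthest from the median score, r was 0.93 for Prph2 and between 0.83 and 0.92 for the other 6 that had passed, 0.69 for Rp1 and for Abca4, and 0.63 for Rp1l1.

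**Figure D4:**
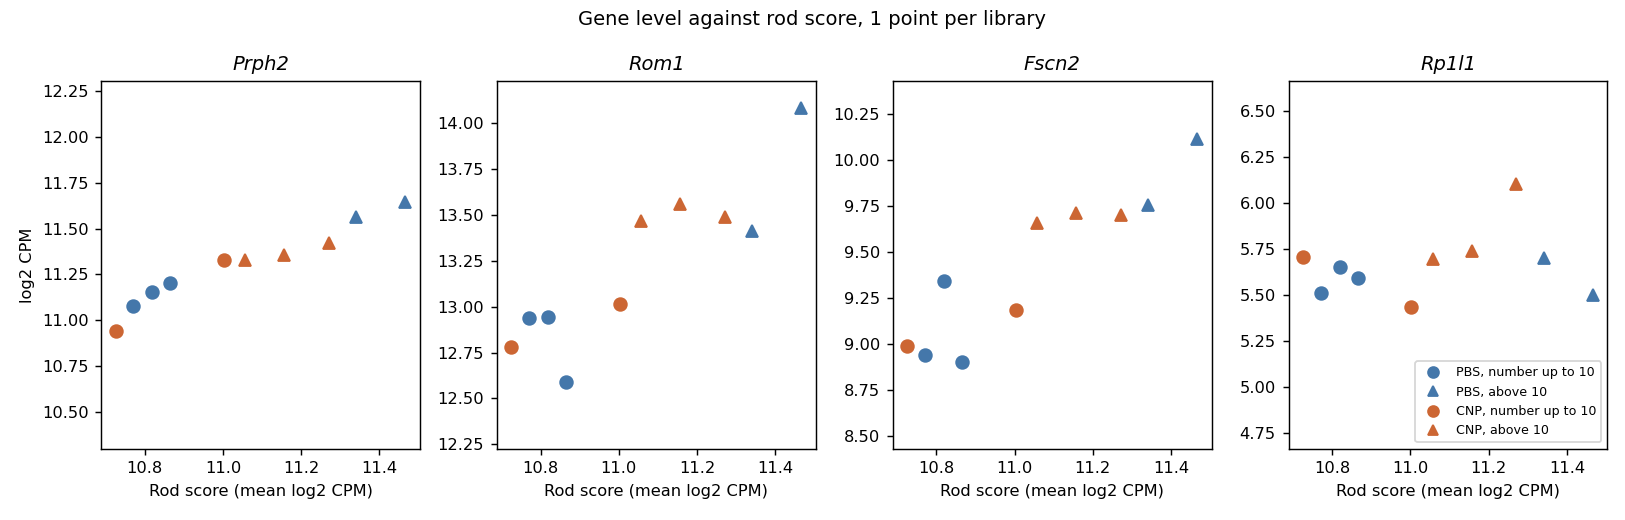
Log2 CPM of 4 members against the rod score (mean log2 CPM of 17 rod genes), 1 point per library, blue for PBS and orange for CNP, circles for label numbers up to 10 and triangles above; each vertical axis spans the same range of 2 log2 units. Prph2 rises in every step along the score (rho = 1), Rom1 and Fscn2 rise more steeply, and Rp1l1 shows no such order (r = 0.24).

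Markers of some other cell types also differed between the libraries with the highest and lowest rod score, PBS 14 and CNP 8. Summed cone markers (10 of 10 detected) were highest in PBS 14 and lowest in CNP 8, at 6474 and 4549 CPM. PBS 14, where Prph2, Rom1, Cdhr1 and Fscn2 peaked, had the lowest amacrine (265 CPM) and Müller glia sums (2671 CPM, against 2703 to 3831 CPM in the others), and CNP 8 had 639 and 3324 CPM. Pigment epithelium markers were 2437 CPM in PBS 14 and 941 CPM in CNP 8. The sums in PBS 14 and CNP 8 were closer for bipolar cells (1520 and 1633 CPM), ganglion cells (1385 and 1582 CPM) and microglia (55.0 and 53.2 CPM). The part of these other cells, and of pigment epithelium carried along with the neuroretina, in the members' spread was not tested. In bulk tissue, a larger share of rods and more of each transcript per rod cannot be told apart.

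The label number of the library moved with the same pattern. For 7 members, Prph2, Rom1, Abca4, Prom1, Cdhr1, Tulp1 and Fscn2, the 5 libraries numbered above 10 were all higher than the 5 numbered up to 10, as was the case for 9.82% of all genes tested (10.8% were lower without overlap); Rom1 ran from 10897 to 17318 CPM above 10 and from 6173 to 8272 CPM up to 10. The gap was narrow for Prph2, whose sets ended at 2569 and began at 2574 CPM, and Rp1, Rp1l1 and Impg1 overlapped. The TMM factors split by number too, from 1.0267 to 1.0979 up to 10 and from 0.8488 to 0.9727 above it. CPM is divided by these factors, so the scaling widened the gaps. On library totals alone the sets overlapped for Prph2, Abca4, Prom1 and Cdhr1. Prph2, for example, had 14125 of 5354649 counts in CNP 4 and 8737 of 3493667 in CNP 12. The labels do not say what the number stands for. The sets hold 3 PBS with 2 CNP and 2 PBS with 3 CNP libraries, too few for a correlation within each. With deviations taken from the mean of each set, the correlation with the rod score was lower for every member than without this step. It was 0.94 for Prph2, 0.75 for Cdhr1, 0.63 for Fscn2 and 0.55 for both Rom1 and Tulp1. It was 0.49 for Rp1, 0.47 for Impg1 and 0.46 for Prom1, but -0.15 for Abca4 and -0.40 for Rp1l1. Abca4, with r = 0.75 without this step, had not passed the adjusted threshold there, and the values within sets were not tested. CNP minus PBS within a set ran from -0.05 (Prom1) to 0.18 (Rp1) log2 units up to number 10, and from -0.25 (Fscn2 and Rp1) to 0.25 (Rp1l1) above it.

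Set against rod transcripts rather than all transcripts, the members fell into different classes. Counted per 10000 counts of the 17 rod genes, the standard deviation over the 10 libraries on the log2 scale fell from 0.21 to 0.12 for Prph2, from 0.45 to 0.22 for Rom1, from 0.42 to 0.18 for Fscn2 and from 0.30 to 0.17 for Tulp1. It was lower on this scale for 7 members. For Prom1 it was 0.14 in CPM and 0.19 per rod count, for Cdhr1 0.14 and 0.19, and for Rp1l1 0.19 and 0.33. Prph2 ran from 223 per 10000 rod counts in PBS 14 to 287 in PBS 2, so its highest library in CPM was its lowest per rod count. Rp1l1 was also lowest in PBS 14, at 3.12, and highest in CNP 8, at 6.48. Prom1 and Cdhr1 were lowest in PBS 14 as well, at 49.1 and 29.6, and highest in PBS 6 and PBS 10, at 75.2 and 43.9.

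Ratios between partner genes within a library need no scaling. Rom1 counts were 2.61, 3.62, 3.45, 5.42 and 3.60 times those of Prph2 in PBS 2, 6, 10, 14 and 18, and 3.22, 3.57, 4.61, 4.39 and 4.19 times in CNP 4, 8, 12, 16 and 20. The tetraspanin ratio thus spanned its whole range within PBS, from PBS 2 to PBS 14. CNP minus PBS was 0.12 on the log2 scale (exact permutation p = 0.579, two-sided; 0.667 adjusted over the 4 ratios compared). Rp1l1 to Rp1 ran from 0.233 to 0.393 in PBS and from 0.295 to 0.375 in CNP (difference 0.11, exact permutation p = 0.492). Cdhr1 to Prom1 was the steadiest, from 0.542 to 0.602 in PBS and 0.546 to 0.643 in CNP (difference 0.02, exact permutation p = 0.667). Abca4 to Prph2 ran from 0.0262 to 0.0389 and from 0.0268 to 0.0430 (difference 0.17, exact permutation p = 0.317), with PBS 2 and CNP 4 lowest. Without CNP 4 that difference was 0.30 (exact permutation p = 0.0397, not adjusted). The adjusted p was 0.667 for each of the 4 ratios, and 0.00794 is the smallest p that 5 against 5 libraries allow.

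**Figure D5:**
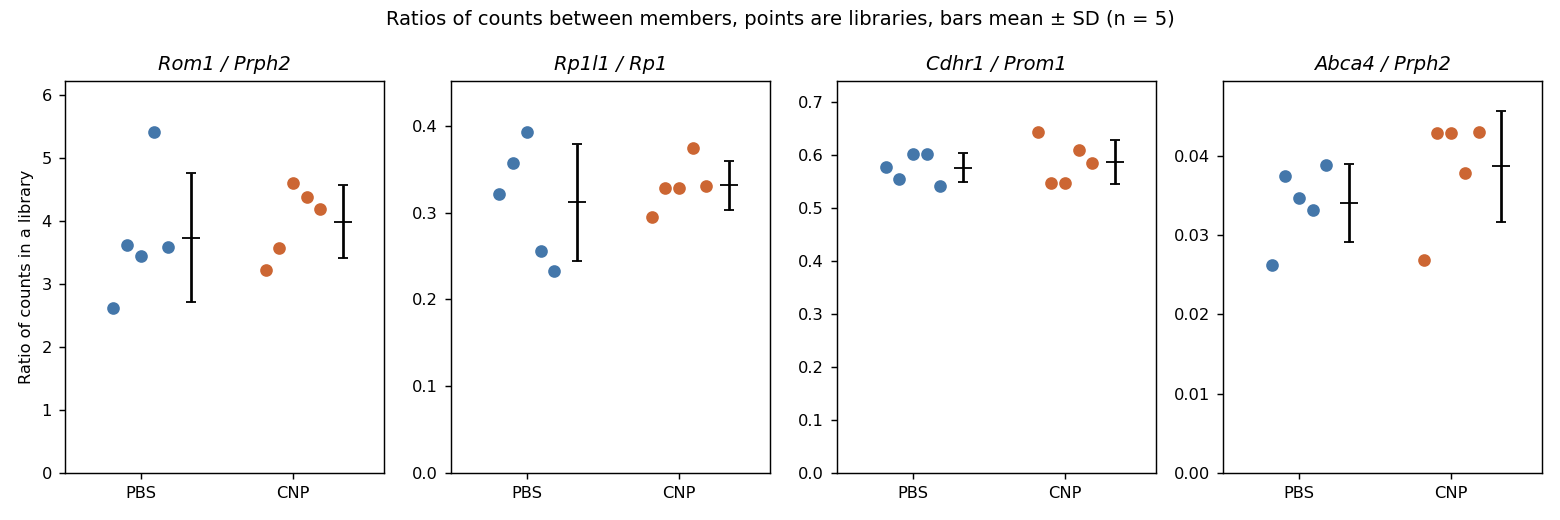
Ratio of counts between 2 members in each library (points, linear axes from 0), PBS in blue and CNP in orange, with the mean ± SD of 5 libraries. Rom1 to Prph2 spans 2.61 to 5.42 within PBS alone, and the groups overlap in all 4 panels.

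Other genes of outer segment structure, membrane and transport were compared in the same way. Of 19 listed, 17 could be tested, and 0 were higher and 0 lower at edgeR's adjusted threshold, or at an unadjusted p under 0.05; 7 log2 fold changes were positive and 10 negative, with a median of -0.02 (-0.0035 over all genes tested). Guca1b, a calcium sensor of guanylate cyclase, stood at 4675 ± 1731 CPM with saline and 4582 ± 892 CPM with nanoparticles (SD over 5 libraries). Prcd, a small disc protein, stood at 1433 ± 654 and 1414 ± 381 CPM. The lipid-binding carriers Pde6d (log2 fold change 0.06) and Unc119 (0.06) and the GTPase Arl3 (0.22, SE 0.17), which release and deliver lipidated proteins, and the retinol dehydrogenase Rdh12 (-0.04) complete the 6 most abundant. The 2 genes not tested, Kif17 and Rdh8, had 47 and 42 counts in all.

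Relatives of the members were scarce beside them, with a few exceptions. Of 20 relatives, 18 had a count and 10 could be tested; 0 passed edgeR's adjusted threshold. The relatives above 10 CPM on average were Fscn1 (194 CPM), Impg2 (51.2, also on the preceding list), Dclk1 (35.1), Tub (34.8) and Tulp4 (19.2), with log2 fold changes of -0.10, -0.01, 0.05, 0.05 and 0.28. Fscn1, the fascin of many other cell types, ran from 115 to 288 CPM. Dclk1 and Tub are expressed in other neurons. Dcdc2a, a doublecortin-domain gene named after its value was seen, was the relative with an unadjusted p under 0.05 (0.61, SE 0.23; unadjusted p = 0.0217), on 74 counts in PBS and 111 in CNP. Prom2, Tulp2, Cdhr4 and Cdhr5 had 3 counts or fewer in all, and Fscn3 and Cdhr2 had 0. The labels do not say how reads shared by relatives were assigned.

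Among the genes whose levels over the 10 libraries were most like the mean standardized profile of the members were Lyar (Pearson's r = 0.99), mt-Rnr1 (0.98), Cngb1 (0.97) and Faim (0.97). Cngb1 encodes a subunit of the rod cation channel, which is on the list of other outer segment genes. The mitochondrial ribosomal RNA mt-Rnr1 ran from 2165 to 7110 CPM, and its part in the pattern was not tested. None of these 4 is in the rod list, and these likenesses were picked as the highest of many.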

How the data were processed

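Barcoded primers with molecular identifiers and template switching gave cDNA from polyadenylated RNA, per the labels' protocols. The submitters' processing notes list STAR, STARsolo and GRCm39; for versions, annotation, strand and collapsing of identifiers they and the labels give no entry. The authors deposited raw whole-number counts per Ensembl gene; counting errors given here cover counting only, and are too small if identifiers were not collapsed. Symbols came from a table that matched 51880 of 57186 identifiers. Library pairs within groups differed by 3.99 to 32.6 chi-square per degree of freedom, so none was a duplicate.

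Genes were filtered with filterByExpr (minimum count 10, minimum total 15), scaled by TMM and tested over all 11499 genes with the quasi-likelihood test of edgeR 4.0.16 under R 4.3.3 (two-sided, p-values adjusted by Benjamini and Hochberg), without a covariate. Intervals follow from its F statistic. Log2 CPM used a prior count of 2. Ratios were compared over all 252 assignments of libraries. The scripts were tested on simulated counts. DESeq2 1.42.0, limma 3.58.1 (voom), other scalings, no filter, a covariate and leaving out each library were alternatives. Genes named were all 10 members, the 6 most abundant of the list of other outer segment genes (none passed the threshold), relatives above 10 CPM and the 5 genes most like the members' profile, of which 1 is not reported here. The members and lists were chosen with earlier results of these data known, and the promoter words and windows shown were chosen after values were seen.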

Additional observations from a re-analysis of the deposited data

Results flagged for a closer look

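Single libraries lying far from the rest of their group were looked for in the 10 members and the 4 ratios, 28 groups of 5 in all, where chance flags about 1 in 20. Prph2 in CNP 8, at 1965 CPM, lay below the other CNP libraries (2569 to 2738 CPM). Impg1 in PBS 18, at 187.8 CPM, lay above the other PBS libraries (122 to 141 CPM).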

How the results depend on the processing

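Under 10 alternatives and with each of the 10 libraries left out, 0 members and 0 genes passed the adjusted threshold; the lowest adjusted p of a member was 0.928, without the low-count filter. Fold changes near 0 changed sign. Rom1 became 0.053 with limma-voom, 0.0061 with upper-quartile scaling, 0.0337 on library totals, 0.0291 on totals without lens crystallins, 0.0909 with the summed rod genes as library size and 0.0028 without the filter. Fscn2 became 0.025 with limma-voom, 0.0183 on totals, 0.0135 without crystallins and 0.0714 with the rod genes. Impg1 became -9e-04 with DESeq2 and -4e-04 without crystallins. With library number above 10 as a covariate, Rp1, Cdhr1 and Impg1 became -0.0292, -0.0372 and -0.058. The ratio difference of Rom1 to Prph2 became -0.008 among libraries numbered above 10, and that of Rp1l1 to Rp1 was -0.192 up to 10 and 0.4963 above 10 (exact permutation p = 0.3 and 0.1). The cause was not tested.

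With each library left out in turn, log2 fold changes ran from -0.1245 to 0.0206 for Prph2, -0.1334 to 0.2903 for Rom1, -0.0852 to 0.164 for Rp1, -0.059 to 0.0332 for Prom1, -0.0344 to 0.0648 for Cdhr1, -0.1266 to 0.2026 for Fscn2 and -0.1025 to 0.1318 for Impg1. Abca4 ran from 0.0019 (without PBS 2) to 0.2306, Rp1l1 from 0.0568 to 0.2391 and Tulp1 from 0.0086 to 0.2572; with the covariate, Abca4 was 0.0062. Ratio differences ran from 0.0027 to 0.2653 (Rom1 to Prph2), 0.0134 to 0.2021 (Rp1l1 to Rp1), -0.0106 to 0.0483 (Cdhr1 to Prom1) and 0.0825 to 0.3004 (Abca4 to Prph2). Intervals were not computed with DESeq2. No paired analysis was possible because libraries are not tied to animals. Each replicate number names a single library, so whether any libraries form pairs is not known.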
